A study of Mus musculus with 26 samples.

Results

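The conjugating enzymes of the liver attach a polar group to drugs, hormones, bile acids and other small molecules, so that these can leave the cell. They were taken here as every gene row of the count table whose symbol begins as a UDP-glucuronosyltransferase (Ugt), a cytosolic sulfotransferase (Sult), a glutathione S-transferase (Gst) of the alpha, pi, kappa, theta, zeta or omega class, or a microsomal glutathione S-transferase (Mgst), and which held at least 50 counts over all libraries. The mu-class Gstm cluster was left out. This gave 52 of 35976 gene rows: 20 Ugt, 17 Sult, 12 Gst and 3 Mgst genes. The symbol patterns matched 58 rows, and the 6 rows under 50 counts (Gsto2, Gstt4, Sult1c1, Sult2a3, Sult3a2 and Sult6b2) are not described further.

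RNA was sequenced from frozen fragments of mouse liver tumours and from control liver, and reads were counted per gene. In the Cyp1a2_CA group (10 libraries, 9 animals) a tamoxifen-inducible Cre recombinase is driven from Cyp1a2, a gene of pericentral hepatocytes. These mice carry a floxed exon in 1 Ctnnb1 allele (Ctnnb1(ex3)fl/+), the allele used to stabilise β-catenin, and both Arid2 alleles are floxed (Arid2fl/fl). The Gls2_CA group (9 libraries, 5 animals) has the same floxed alleles with Gls2-CreERT2, a driver active in periportal hepatocytes. The Cyp1a2_C group has Cyp1a2-CreERT2 with the Ctnnb1 allele and no floxed Arid2, and it is 1 library (animal CB6), so it has no test. All tumour mice were on a mixed background of C57BL/6J and Swiss Webster, received tamoxifen at postnatal day 28 and were followed for 6 to 12 months. The WT controls (6 libraries, 6 animals) were C57BL/6J mice on normal chow that received Cre from an adeno-associated virus and were followed for up to 12 months. Strain, virus or tamoxifen, and sequencing depth therefore differ between tumours and WT, and cannot be told apart from tumour in any comparison with WT. Libraries of 1 animal, as numbered in the titles, were summed, so that n counts animals.

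Total counts per library were 37051941 to 49254470 in Cyp1a2_CA, 36992043 to 42865787 in Gls2_CA, 41038144 in Cyp1a2_C and 13486530 to 16975288 in WT. Levels are given as CPM, counts scaled to a fixed library total, after TMM normalisation, and they were not divided by gene length, so they are compared between groups and not between genes. Arid2, the floxed gene, stood at 25.7 to 36.6 CPM in Cyp1a2_CA, at 24.1 to 46.8 CPM in Gls2_CA and at 40.9 CPM in Cyp1a2_C, all below the 60.5 to 72.8 CPM of WT. A count over the whole gene does not show whether the floxed part was removed, and the library labelled Cyp1a2_C is low without the floxed allele in its label. The summed CPM of 8 hepatocyte markers was 11478 to 93984 (median 20687) in Cyp1a2_CA, 5125 to 23832 (median 18423) in Gls2_CA, 663.8 in Cyp1a2_C and 74501 to 98045 (median 82563) in WT. No hepatocyte marker was at 0 in any group. Of the 8 markers, 5 fell in Cyp1a2_CA and 6 in Gls2_CA, and 0 rose in either. Albumin (Alb) fell by 2.39 and 3.23 on the log2 scale (adjusted p = 1.2e-05 and 1.4e-05). Ahsg, with log2 fold changes of 0.59 and -0.25 (adjusted p = 0.35 and 0.52), and the hepatocyte factor Hnf4a, with 0.09 and -0.05 (adjusted p = 0.67 and 0.89), passed in neither, and Apoh had -0.58 (adjusted p = 0.053) in Cyp1a2_CA. In bulk tissue, fewer hepatocytes and less RNA per hepatocyte cannot be told apart, and this bears on every fall described here.

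Libraries of 4 tumour animals stood apart by Ttn, which encodes the sarcomere protein titin. Ttn was at 20952 CPM in CAB44 and 20651 CPM in CAB225 (both Cyp1a2_CA), at 30171 CPM in GAB235 (Gls2_CA) and at 8668 CPM in CB6 (Cyp1a2_C). All other tumour libraries had at most 92.9 CPM, and WT libraries 1.14 to 2.21 CPM. Many conjugating enzymes were low in the same animals. The counts cover members with at least 5 CPM as the median of the other animals, or of WT for CB6. In Cyp1a2_CA, 19 of 33 were lower in both of these animals than in every other Cyp1a2_CA animal. In GAB235, 30 of 35 were lower than in the other Gls2_CA animals, and 32 of 32 were lower in CB6 than in every WT animal. Choosing members by their level in the other animals favours such counts, and the Ugt1a rows, which share reads, were counted singly. The share over all genes was not taken, so the counts only describe these animals. The summed sarcomere markers, Ttn among them, reached 20911, 29978 and 8380 CPM in the 3 tumour groups against at most 3.01 CPM in WT. These highest sums were nearly all Ttn. On the same scaling over animals, Ttn alone was at 20909 CPM in CAB44, 29975 CPM in GAB235 and 8339 CPM in CB6. Ckm, the muscle creatine kinase, was at 0 in every Cyp1a2_CA, Cyp1a2_C and WT animal. The part of the 4 high-Ttn libraries in the results was not tested, so counts and values are given with and without these libraries where they differ.

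Glucuronosyltransferases move glucuronic acid from UDP-glucuronic acid to their substrates in the endoplasmic reticulum. Ugt1a enzymes come from 1 locus in which separate first exons are spliced to common later exons, whereas Ugt2 enzymes come from separate neighbouring genes. Sulfotransferases use the donor PAPS in the cytosol and act on phenols, catechols and steroids, and glutathione S-transferases join reactive compounds to the tripeptide glutathione. In the adult liver these enzymes are made largely by hepatocytes, and several are known to be set by sex, by zone of the lobule and by receptors for foreign compounds.

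The DNA around the start sites of 8 members is shown because their pairs carry the main contrasts described below: neighbours or copies that moved in opposite directions (Gstp1 and Gstp2), parted within 1 locus (Ugt1a1 and Ugt1a9), fell by different amounts (Ugt2b38 and Ugt2b5) or rose (Gsta1 and Gsta2). Each stretch runs from 150 bases before to 10 bases from the annotated start in RefSeq (GRCm38.p6), 5′ to 3′ on the gene's strand. Capitals mark the short element of the hepatocyte factor HNF1, GTTAAT or its reverse complement ATTAAC, and the core of the dioxin response element, GCGTG or its reverse complement.
Ugt1a1, chr1:88211809-88211968, plus strand: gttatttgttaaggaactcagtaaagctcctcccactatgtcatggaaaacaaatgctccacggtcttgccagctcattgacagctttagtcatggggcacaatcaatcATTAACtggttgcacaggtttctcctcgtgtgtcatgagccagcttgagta
Ugt1a9, chr1:88070629-88070788, plus strand: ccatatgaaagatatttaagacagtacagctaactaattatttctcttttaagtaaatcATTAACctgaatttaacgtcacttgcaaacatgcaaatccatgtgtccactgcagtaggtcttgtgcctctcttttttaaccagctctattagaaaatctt
Ugt2b5, chr5:87140331-87140490, minus strand: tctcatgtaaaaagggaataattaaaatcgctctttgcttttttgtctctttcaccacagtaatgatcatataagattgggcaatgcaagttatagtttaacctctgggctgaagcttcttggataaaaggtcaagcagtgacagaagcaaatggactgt
Ugt2b38, chr5:87424194-87424353, minus strand: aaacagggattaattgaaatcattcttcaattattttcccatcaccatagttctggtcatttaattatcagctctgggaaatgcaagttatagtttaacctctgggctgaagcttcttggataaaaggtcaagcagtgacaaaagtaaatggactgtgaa
Gstp1, chr19:4037903-4038062, minus strand: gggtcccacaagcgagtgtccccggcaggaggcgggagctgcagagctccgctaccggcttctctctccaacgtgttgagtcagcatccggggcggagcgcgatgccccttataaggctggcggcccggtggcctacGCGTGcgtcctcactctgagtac
Gstp2, chr19:4042212-4042371, minus strand: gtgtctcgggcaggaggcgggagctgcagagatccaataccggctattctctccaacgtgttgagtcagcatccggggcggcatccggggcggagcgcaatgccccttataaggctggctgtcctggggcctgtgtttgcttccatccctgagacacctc
Gsta1, chr9:78230519-78230678, plus strand: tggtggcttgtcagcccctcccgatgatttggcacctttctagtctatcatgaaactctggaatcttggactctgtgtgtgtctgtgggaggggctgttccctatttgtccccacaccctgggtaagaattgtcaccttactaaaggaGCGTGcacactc
Gsta2, chr9:78347136-78347295, minus strand: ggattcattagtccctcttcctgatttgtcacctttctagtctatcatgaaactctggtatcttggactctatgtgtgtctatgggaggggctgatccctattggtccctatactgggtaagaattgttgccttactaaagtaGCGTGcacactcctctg
RefSeq promoters were matched for 44 of the 52 members. Over the longer windows from 250 bases before to 50 bases after the start, read on both strands, GTTAAT stood in 12 of 50 member promoters (24.0%) and in 7.1% of all 32851 promoters. The dioxin element core stood in 9 of 50 (18%) against 32.39% of all promoters, and the antioxidant response element core TGACNNNGC in 2 of 50 (4.0%) against 12.39%. These are letters found in a window of neighbouring, similar genes: the Ugt2b38 promoter was 86.9% identical to that of Ugt2b37 and 84.2% to that of Ugt2b5. No base-level readout of these promoters was measured.

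Across the conjugating enzymes, glucuronosyltransferases fell in both tumour groups, while sulfotransferases and glutathione S-transferases held members that rose and members that fell. Of the 52 members, 41 passed the filter on low counts in Cyp1a2_CA against WT. There 8 were higher and 23 lower (edgeR quasi-likelihood test, Benjamini-Hochberg adjusted p under 0.05 over all 16841 genes tested). This is 19.5% and 56.1% of those tested, beside 38.3% higher and 32.7% lower over all genes (70.9% in either direction). In Gls2_CA against WT, 39 members passed the filter, of which 7 were higher (17.9%) and 25 lower (64.1%), beside 39.2% and 34% over all 14976 genes tested (73.2% in either direction). The share of members called in either direction, 75.6% and 82.1%, was near that background of 70.9% and 73.2%. The median log2 fold change of the members tested was -1.61 in Cyp1a2_CA and -1.38 in Gls2_CA, against 0.17 and 0.14 over all genes tested. Both comparisons share the WT animals.

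The 8 Ugt1a rows share most of their reads (described with that locus), so they were also counted as 1 gene. The counts were then 8 higher and 16 lower of 34 in Cyp1a2_CA and 7 higher and 18 lower of 32 in Gls2_CA, with medians of -1.12 and -1.06. Without the high-Ttn libraries, 10 of 41 members tested were higher and 23 lower in Cyp1a2_CA. In Gls2_CA 8 of 38 were higher and 25 lower. The shares over all genes in these fits are not given here, so the counts only describe the members. The members higher in both tumour groups were Gsta1, Gsta2, Gstp2, Gstt2, Mgst3, Sult1a1 and Sult1e1, and 22 members were lower in both. No member was higher in one tumour group and lower in the other. The 22 include the 8 Ugt1a rows. The share of all genes called alike in both comparisons was not taken, and both use the same WT animals. These counts therefore only list the members. The plot of fold changes gives every member tested.

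**Figure D1:**
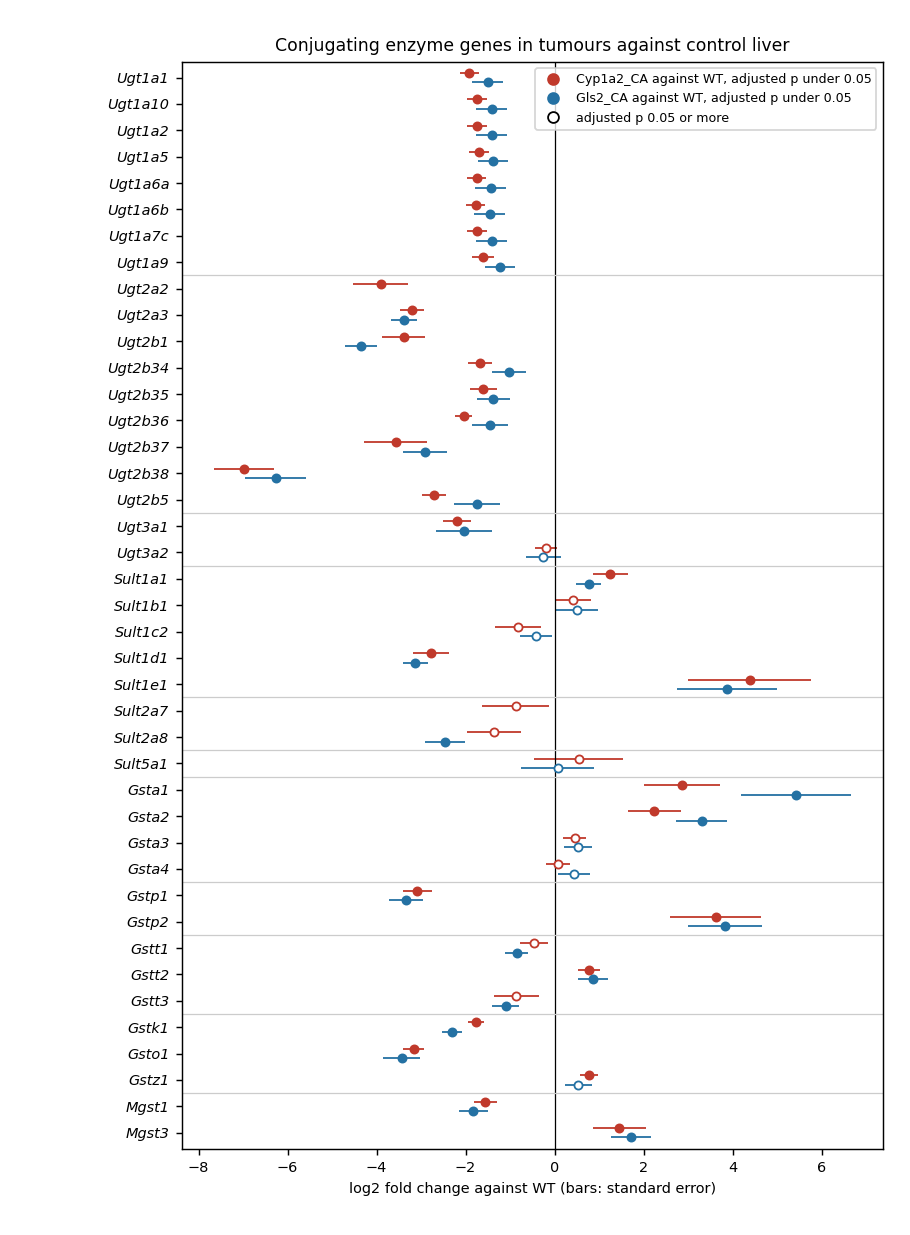
Log2 fold change of each conjugating enzyme gene against WT, with its standard error, for Cyp1a2_CA (red, 41 genes tested) and Gls2_CA (blue, 39 genes tested). Filled points have an adjusted p under 0.05. The Ugt genes lie at the left, with Ugt2b38 farthest at -6.98 and -6.26, and the genes at the right are Sult1e1, Gsta1, Gsta2 and Gstp2.

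Of the Ugt genes, 18 of 19 tested fell in Cyp1a2_CA and 17 of 18 in Gls2_CA, with median log2 fold changes of -1.77 and -1.44. These are 94.7% and 94.4% of the Ugt rows tested, beside 32.7% and 34% lower over all genes. In each comparison 8 of the falls are Ugt1a rows, which share most of their reads and are not separate results. Of the Ugt2 rows tested, 9 of 9 and 8 of 8 fell, and of the Ugt3 rows 1 of 2 in each comparison. No Ugt gene was higher in either comparison, and none at an unadjusted p under 0.05, by edgeR, DESeq2 or limma-voom. The only Ugt gene tested that did not pass was Ugt3a2. Ugt2a2, which shares reads with Ugt2a1, was tested in Cyp1a2_CA only, where it fell by 3.91 (adjusted p = 3.7e-05). It had 0 to 4 reads per Cyp1a2_CA library (at most 0.0981 CPM by animal) and 5 to 18 per WT library (0.321 to 1.22 CPM). Near the floor in tumours, it reached the filter through WT, so a fall was the only call it could give. Ugt2a1 passed no filter and was at 0 to 0.109 CPM in all tumour animals and 0.229 to 1.16 CPM in WT.

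Ugt2b1 (chr5:86916638-86926530, minus strand) is among the Ugt2b genes of a cluster whose enzymes glucuronidate steroids, bile acids and drugs. Its lowest, median and highest levels in Cyp1a2_CA animals were 7.37, 74.2 and 169 CPM. Gls2_CA animals had 39.8, 51.9, 14.8, 20.6 and 56.3 CPM, and WT animals 558, 672 and 871 CPM as lowest, median and highest. Every tumour animal was below every WT animal. The fold change was -3.39 (SE 0.49, adjusted p = 1.4e-05), a 10.5-fold fall, in Cyp1a2_CA and -4.35 (SE 0.36, adjusted p = 6.6e-07), a 20.5-fold fall, in Gls2_CA.

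Ugt2b38 had the largest fold change among the members that fell, in both comparisons. It was at 0.0245, 0.0564 and 0.816 CPM (lowest, median, highest) in Cyp1a2_CA, at 0.136, 0.739, 0.024, 0.130 and 0.286 CPM in Gls2_CA and at 7.55, 19.1 and 28.8 CPM in WT. Tumour and WT animals did not overlap. Fold changes were -6.98 (SE 0.68, adjusted p = 1.8e-07) and -6.26 (SE 0.68, adjusted p = 6.3e-06) on the log2 scale. Without CAB26, the highest Cyp1a2_CA animal, the first was -7.96. Of the 50-base windows in Ugt2b38 transcripts, 37.4% are found in another gene, so part of its reads may have been counted to a copy, or a copy's reads to it.

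The other Ugt2 genes fell by less. Ugt2b5, whose start region is shown above, fell by 2.71 in Cyp1a2_CA and by 1.74 in Gls2_CA (adjusted p = 2.1e-07 and 0.01). In Gls2_CA its animals had 92.0, 378, 19.9, 128 and 106 CPM against 346, 450 and 510 CPM as lowest, median and highest in WT. GAB229, with 378 CPM, lay within the WT range and the other 4 animals below it. Ugt2a3 was at 9.11, 30.4 and 42.4 CPM in Cyp1a2_CA and at 24.9, 34.1, 8.83, 25.4 and 32.2 CPM in Gls2_CA, against 186, 242 and 290 CPM in WT. It fell by 3.21 and 3.38 (adjusted p = 4e-08 and 9.9e-07), and all tumour animals were below all WT animals. Ugt2b34 was at 58.4, 201 and 261 CPM in Cyp1a2_CA, at 316, 465.8, 54.5, 298 and 309 CPM in Gls2_CA and at 440, 561 and 604 CPM in WT. Its log2 fold changes were -1.67 (adjusted p = 4.2e-05) and -1.02 (adjusted p = 0.027), and GAB229 lay within the WT range. The Gls2_CA call was lost without WT_Cre-BL3 (adjusted p = 0.05). Without GAB235 the Gls2_CA value was -0.76 (adjusted p = 0.00044). Ugt2b35, Ugt2b36 and Ugt2b37 fell in both comparisons, with log2 fold changes of -1.60, -2.04 and -3.57 in Cyp1a2_CA and -1.37, -1.45 and -2.91 in Gls2_CA.

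The pair of Ugt3 genes, whose human counterparts use sugars other than glucuronic acid, parted. Ugt3a1 was at 2.20, 4.73 and 10.8 CPM in Cyp1a2_CA, at 13.2, 3.87, 0.552, 1.79 and 11.1 CPM in Gls2_CA and at 16.7, 23.6 and 28.6 CPM in WT. Every tumour animal was below WT, with log2 fold changes of -2.19 and -2.04 (adjusted p = 1.1e-05 and 0.011). Ugt3a2 (chr15:9335550-9370955) was at 73.5, 204 and 284 CPM in Cyp1a2_CA, at 277, 134, 30.5, 146 and 273 CPM in Gls2_CA and at 168, 190 and 208 CPM in WT. The groups overlapped, and its log2 fold changes were -0.19 (SE 0.25, adjusted p = 0.51) and -0.25 (SE 0.39, adjusted p = 0.58). Without the high-Ttn libraries they were 0.004 and 0.02.

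At the Ugt1a locus (Ugt1a1 at chr1:88211959-88218997, Ugt1a9 at chr1:88070800-88218997, plus strand) the 8 rows had nearly the same counts in each library. The lowest row, Ugt1a10 in all but 3 libraries and Ugt1a2 in those, held 69.1% to 82.6% of the highest row's counts. Ugt1a1 and Ugt1a9 share 1311 annotated exon bases with other Ugt1a genes, of 2224 and 2190 in all, so the rows repeat the reads of the common exons. The row of Ugt1a1, the enzyme that conjugates bilirubin, was at 80.0, 196 and 264 CPM in Cyp1a2_CA, at 262, 449, 63.9, 255 and 231 CPM in Gls2_CA and at 591, 666 and 728 CPM in WT. All tumour animals were below all WT animals. The row's log2 fold changes were -1.91 (SE 0.21, adjusted p = 6.1e-07) and -1.499 (SE 0.35, adjusted p = 0.0021). The row of Ugt1a9, an enzyme for phenols and drugs, was at 72.0, 185 and 280 CPM in Cyp1a2_CA, at 213, 412, 60.0, 265 and 208 CPM in Gls2_CA and at 453, 506 and 547 CPM in WT. Its log2 fold changes were -1.61 (adjusted p = 2e-05) and -1.23 (adjusted p = 0.0068), also without overlap.

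To look at the first exons, the lowest row of each library was subtracted from the others, a step chosen after the rows had been seen. The excess of Ugt1a1 averaged 36.4 ± 11.1 CPM in Cyp1a2_CA (SD, n = 9) and 60.3 ± 33.1 CPM in Gls2_CA (SD, n = 5), against 188 ± 18.5 CPM in WT (SD, n = 6). Its log2 fold changes in the edgeR fit were -2.45 (adjusted p = 1.1e-08) and -1.75 (adjusted p = 0.00084). The excess of Ugt1a9 averaged 25.7 ± 19.0 CPM in Cyp1a2_CA and 39.9 ± 24.6 CPM in Gls2_CA against 30.5 ± 5.11 CPM in WT. Its log2 fold changes were -0.33 (SE 0.55, adjusted p = 0.60) and 0.28 (SE 0.37, adjusted p = 0.51), so the fall of the whole Ugt1a9 row was not seen in the part of its counts beyond the lowest row. The excesses of Ugt1a6a and Ugt1a6b, further phenol-conjugating forms, fell by 1.83 and 2.24 in Cyp1a2_CA and by 1.81 and 2.55 in Gls2_CA (adjusted p at most 0.00028). The Ugt1a5 excess had -1.07 (adjusted p = 0.025) in Cyp1a2_CA and -0.95 (adjusted p = 0.077) in Gls2_CA. The small Ugt1a7c excess had -1.20 (adjusted p = 0.18) and -1.26 (adjusted p = 0.025). That of Ugt1a2, also small, had -1.44 (adjusted p = 0.011) and -2.92 (adjusted p = 0.0018).

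The log2 ratio of the Ugt1a9 to the Ugt1a1 excess was -1.09 ± 1.86 in Cyp1a2_CA (SD, n = 9) and -0.64 ± 0.73 in Gls2_CA (SD, n = 5), against -2.63 ± 0.20 in WT (SD, n = 6). All 5 Gls2_CA animals and 8 of 9 Cyp1a2_CA animals were above every WT animal. The exception was the high-Ttn animal CAB44, whose Ugt1a9 excess was 27 reads. Without the high-Ttn animals all 7 Cyp1a2_CA animals were above WT. The ratio was chosen after the values had been seen.

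**Figure D2:**
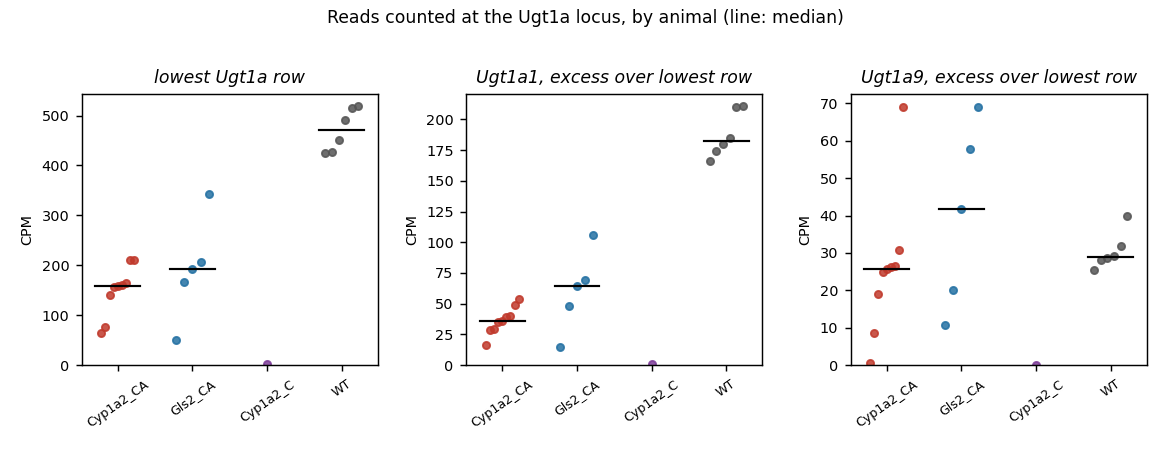
CPM at the Ugt1a locus by animal (points; line: median), for the lowest Ugt1a row and for the counts of Ugt1a1 and Ugt1a9 beyond it, in Cyp1a2_CA, Gls2_CA, Cyp1a2_C and WT. The lowest row and the Ugt1a1 excess are below WT in every tumour animal, while the Ugt1a9 excess overlaps with WT.

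Of 8 Sult genes tested in Cyp1a2_CA, 2 rose and 1 fell, and of 7 in Gls2_CA, 2 rose and 2 fell. These are 37.5% and 57.1% of the sulfotransferases tested, beside 70.9% and 73.2% over all genes, and the difference in share was not tested. Sult1d1 (chr5:87554645-87569027, minus strand), which in the mouse sulfonates catecholamines, fell in both. It was at 7.08, 11.8 and 57.7 CPM in Cyp1a2_CA, at 7.42, 12.97, 11.7, 19.5 and 23.1 CPM in Gls2_CA and at 82.1, 123 and 152 CPM in WT. Tumour and WT animals did not overlap, and the log2 fold changes were -2.78 (SE 0.41, adjusted p = 1.9e-05) and -3.13 (SE 0.29, adjusted p = 1.4e-06).

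Sult1e1 is the neighbour of Sult1d1 (chr5:87575969-87591594, minus strand) and encodes oestrogen sulfotransferase. It was at 0.169, 1.496 and 53.1 CPM in Cyp1a2_CA, at 1.71, 0.0509, 0.744, 24.0 and 14.8 CPM in Gls2_CA and at 0.172, 0.598 and 0.788 CPM in WT. The rise lay in part of the animals: 6 of 9 Cyp1a2_CA and 3 of 5 Gls2_CA animals were above every WT animal, and 2 of 9 and 2 of 5 were more than 10 times the highest WT value. The log2 fold changes were 4.38 (SE 1.38, adjusted p = 0.01) and 3.88 (SE 1.12, adjusted p = 0.008). They were 3.52 without CAB239 and 2.96 without GAB242. Libraries of the same animal also differed. GAB242 had 0.454, 4.94 and 65.9 CPM in its S, M and L libraries, GAB294 had 2.07, 13.8 and 25.2 CPM in S, M1 and M2, and CAB28 had 1.99 and 12.2 CPM in S and L (the labels do not say what the letters stand for). With only the first library of each animal the Gls2_CA value was 0.88 (adjusted p = 0.27).

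Sult1a1, the main phenol sulfotransferase of the liver, rose in both groups. It was at 106, 481 and 971 CPM in Cyp1a2_CA, at 472, 241, 174, 657 and 342 CPM in Gls2_CA and at 184, 198 and 254 CPM in WT. The tumour animals below WT were 2 high-Ttn Cyp1a2_CA animals and GAB235. The rises were 1.26 (SE 0.39, adjusted p = 0.0099) and 0.77 (SE 0.28, adjusted p = 0.026), and 1.53 and 0.95 without the high-Ttn libraries. Its annotated exons share 61 bases with Sgf29 on the other strand. The Gls2_CA call was lost when GAB18 or GAB242, or 1 of 3 WT animals, was left out (adjusted p 0.056 to 0.085). It was also lost under upper-quartile scaling (0.54, adjusted p = 0.099).

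Sult2a8, a bile acid sulfotransferase of mouse liver with a male bias, was at 3.77, 280 and 1073 CPM in Cyp1a2_CA, at 212, 101.4, 46.9, 69.2 and 341 CPM in Gls2_CA and at 745, 768 and 831 CPM in WT. All Gls2_CA animals and 8 of 9 Cyp1a2_CA animals were below WT, and CAB26 alone was above it. The Gls2_CA log2 fold change was -2.46 (SE 0.44, adjusted p = 0.00034). In Cyp1a2_CA the log2 fold change was -1.36 (SE 0.60, adjusted p = 0.055), and it was -1.85 (adjusted p = 0.0073) without CAB26 and -1.19 (adjusted p = 0.0077) without CAB52, the lowest animal. Of 6 other male-biased liver genes on the list of sex-biased markers, 5 fell in both comparisons (Cyp2d9, Mup20, Hsd3b5, Slco1a1 and Cyp7b1). Cyp2d9 fell by 3.86 and 3.49, and Slco1a1, an organic anion transporter, fell by 3.54 and 5.58. Cyp7b1 fell by 2.51 and 1.76 (adjusted p = 9e-05 and 0.032), and the Gls2_CA call was lost without GAB18, GAB242 or any 1 of WT_Cre-BL3, WT_Cre-BL5 and WT_Cre-BL6 (adjusted p 0.053 to 0.07). Elovl3 had log2 fold changes of 0.27 and -0.87 and passed in neither (adjusted p = 0.77 and 0.32). Their part in the Sult2a8 values was not tested. Xist, a transcript of female cells, was at most 5.17 CPM in Cyp1a2_CA and at most 2.15 CPM in WT, but stood at 19 CPM in GAB229 (Gls2_CA) and at 108 CPM in CB6 (Cyp1a2_C). Ddx3y of the Y chromosome was at 35.8 CPM or more in every animal.

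The female-biased Sult2a genes were at or close to 0 in WT. Sult2a2, Sult2a4, Sult2a5 and Sult2a6 had no read in any WT animal, and Sult2a1 had reads in 1. In tumours, Sult2a2 reached 2.28 CPM in CAB145, 0.979 CPM in GAB18 and 1.70 CPM in GAB242, and was at 0 in 5 of 9 Cyp1a2_CA and 2 of 5 Gls2_CA animals. Sult2a1 reached 0.859 CPM in CAB145 and 2.38 CPM in GAB242, while Sult3a1, another female-biased form, reached 2.36 and 1.86 CPM in the same animals and at most 0.0657 CPM in WT. These genes passed no filter in the comparisons with WT, and 62.1% of the 50-base windows of Sult2a2 are shared with another gene, mostly Sult2a1. Sult2a7 was at 0 to 0.611 CPM in Cyp1a2_CA and 0.122 to 1.09 CPM in WT, a log2 fold change of -0.87 (adjusted p = 0.31).

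The remaining sulfotransferases tested did not pass. Sult1b1, which acts on phenols and thyroid hormone, had log2 fold changes of 0.42 and 0.49 (adjusted p = 0.36 and 0.37), and Sult1c2 of -0.82 and -0.42 (adjusted p = 0.16 and 0.30). Sult5a1 spread widely, from 0 to 59.1 CPM in Cyp1a2_CA and from 0.326 to 29.3 CPM in Gls2_CA against 4.59 to 12.1 CPM in WT (log2 fold changes 0.55 and 0.07, adjusted p = 0.64 and 0.94). Without GAB229 the second was -1.27 (adjusted p = 0.11), and without CAB239 the first was -0.49 (adjusted p = 0.63). Sult2b1, Sult4a1 and Sult6b1 passed no filter against WT and reached at most 2.68, 0.885 and 0.484 CPM in any animal.

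**Figure D3:**
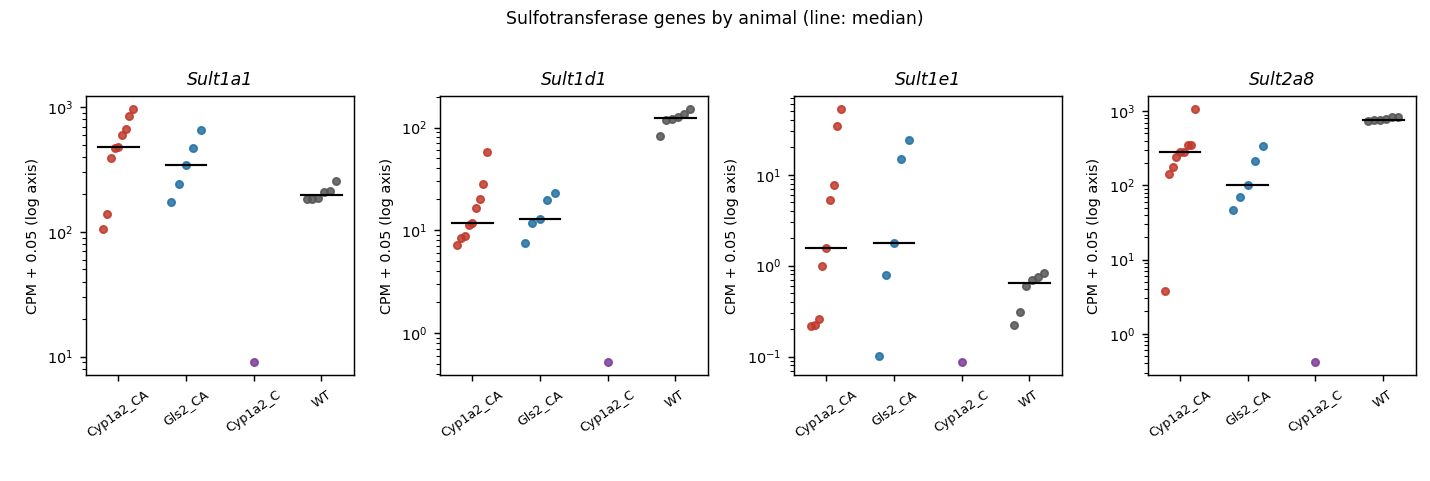
CPM of Sult1a1, Sult1d1, Sult1e1 and Sult2a8 by animal (points; line: median) on log axes, with 0.05 CPM added, in Cyp1a2_CA, Gls2_CA, Cyp1a2_C and WT. Sult1d1 is below WT in every tumour animal. Sult1e1 spreads from below the WT range to 53.1 CPM.

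Of 14 Gst and Mgst glutathione S-transferase genes tested, 6 rose and 4 fell in Cyp1a2_CA, and 5 rose and 6 fell in Gls2_CA. These are 71.4% and 78.6% of the genes tested, near the 70.9% and 73.2% called over all genes. The pi-class neighbours Gstp1 (chr19:4035407-4037985, minus strand) and Gstp2 (chr19:4040285-4046023, minus strand) went opposite ways. Gstp1 was at 36.4, 73.6 and 224 CPM in Cyp1a2_CA, at 58.9, 151, 31.4, 93.0 and 52.9 CPM in Gls2_CA and at 492, 796 and 912 CPM in WT. No tumour animal reached the WT range, and the log2 fold changes were -3.09 (SE 0.33, adjusted p = 4.7e-07) and -3.34 (SE 0.38, adjusted p = 9.5e-06).

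Gstp2 was at 1.34, 6.41 and 72.4 CPM in Cyp1a2_CA, at 3.37, 86.7, 2.86, 43.3 and 42.7 CPM in Gls2_CA and at 0.774, 2.23 and 4.34 CPM in WT. The animals fell into separate sets: CAB145, CAB170, CAB52 and CAB239 had 56.5 to 72.4 CPM and GAB229, GAB242 and GAB294 had 42.7 to 86.7 CPM, while the others stayed at or below 6.41 CPM. The log2 fold changes were 3.62 (SE 1.02, adjusted p = 0.0051) and 3.83 (SE 0.82, adjusted p = 0.0012). Libraries of GAB294 had 14.9, 61.3 and 48.4 CPM. About as many windows of Gstp1 (51.0%) as of Gstp2 (50.4%) are shared with another gene, mainly with each other, so reads can have been moved between the 2 rows.

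Gstp2 made up 19.7% ± 19.7 of the counts of Gstp1 and Gstp2 together in Cyp1a2_CA (SD, n = 9) and 25.3% ± 17.5 in Gls2_CA (SD, n = 5), against 0.305% ± 0.118 in WT (SD, n = 6). All 9 and all 5 tumour animals were above every WT animal. The share was chosen after the values had been seen. This includes the tumour animals whose Gstp2 level lay within the WT range, since Gstp1 was below WT in all of them. The start regions shown above keep long identical runs between the 2 genes, and the GCGTG at the start of Gstp1 is not in the Gstp2 stretch.

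Of the alpha class, Gsta1 (chr9:78230656-78242684) and Gsta2 (chr9:78331018-78355788, minus strand) rose in both groups. Gsta2 was at 1.39, 17.2 and 31.97 CPM in Cyp1a2_CA, at 21.2, 95.4, 5.57, 38.5 and 17.4 CPM in Gls2_CA and at 2.44, 3.46 and 4.36 CPM in WT. All Gls2_CA animals and 7 of 9 Cyp1a2_CA animals were above WT. The rises were 2.24 (SE 0.59, adjusted p = 0.0032) and 3.31 (SE 0.57, adjusted p = 0.00025), the second 2.53 without GAB229. Gsta1 was at 0.139, 0.873 and 3.74 CPM in Cyp1a2_CA, at 0.897, 26.2, 0.648, 6.86 and 0.647 CPM in Gls2_CA and at 0, 0.136 and 0.323 CPM in WT. Its log2 fold changes were 2.87 (SE 0.86, adjusted p = 0.0072) and 5.42 (SE 1.24, adjusted p = 0.0019). Of its 50-base windows 89.7% occur in another gene, and 47.4% of those of Gsta2 do, so the Gsta1 row in particular is uncertain.

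Gsta3, an abundant alpha-class enzyme of mouse liver, was at 467, 1397 and 1943 CPM in Cyp1a2_CA, at 1657, 1495, 331, 1772 and 1644 CPM in Gls2_CA and at 828, 878 and 951 CPM in WT. The animals below WT were the high-Ttn animals CAB44, CAB225 and GAB235, and all others were above it. The log2 fold changes were 0.45 (adjusted p = 0.14) and 0.52 (adjusted p = 0.16), and 0.67 (adjusted p = 0.0009) and 0.77 (adjusted p = 9.8e-06) without the high-Ttn libraries. Gsta4, which conjugates products of lipid peroxidation, had log2 fold changes of 0.08 and 0.44 (adjusted p = 0.81 and 0.28).

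**Figure D4:**
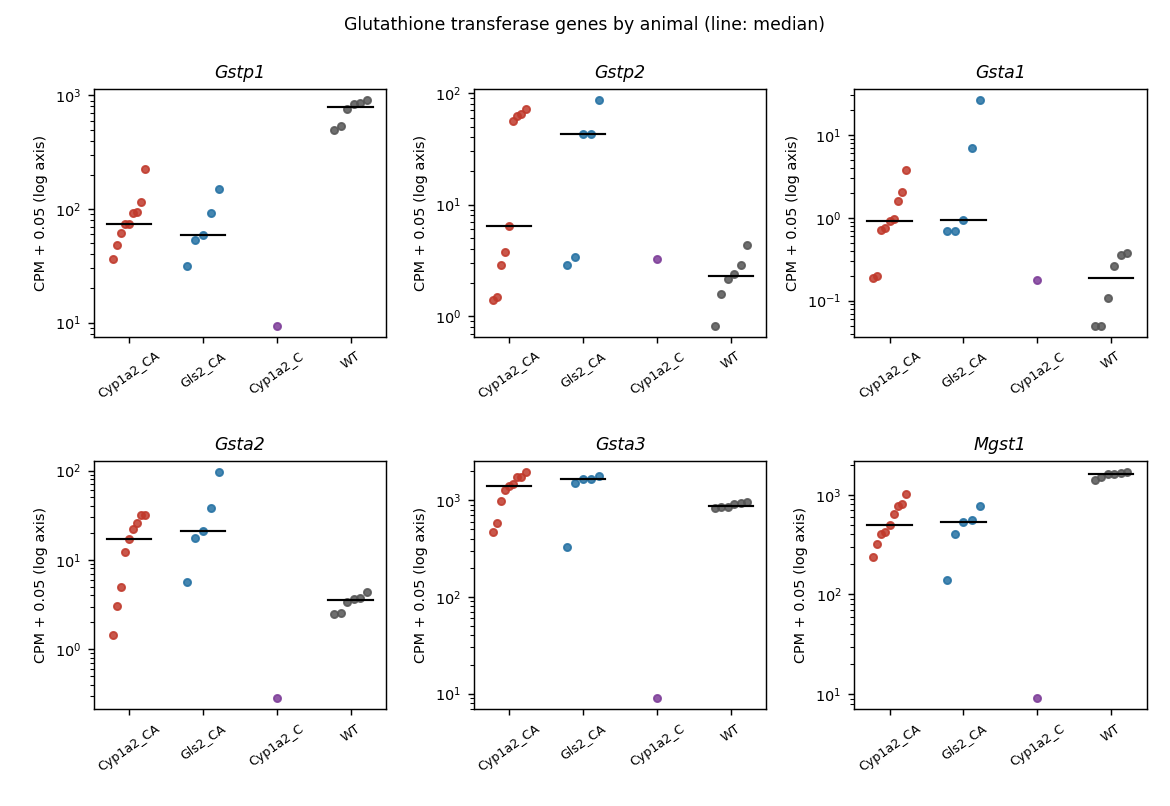
CPM of Gstp1, Gstp2, Gsta1, Gsta2, Gsta3 and Mgst1 by animal (points; line: median) on log axes, with 0.05 CPM added, in Cyp1a2_CA, Gls2_CA, Cyp1a2_C and WT. Gstp1 and Mgst1 are below WT in every tumour animal, and Gstp2 splits the tumour animals into a high and a low set.

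Gsto1 (chr19:47854970-47864790), the omega-class thiol transferase, and Gstk1, the kappa-class enzyme of mitochondria and peroxisomes, fell in both groups. Gsto1 was at 2.34, 8.26 and 11.04 CPM in Cyp1a2_CA, at 1.52, 13.2, 5.40, 7.41 and 5.19 CPM in Gls2_CA and at 59.2, 66.6 and 74.5 CPM in WT. Gstk1 was at 11.9, 23.3 and 28.8 CPM in Cyp1a2_CA, at 19.3, 9.07, 10.2, 16.1 and 23.4 CPM in Gls2_CA and at 65.0, 72.3 and 78.1 CPM in WT. Neither overlapped with WT. Gsto1 had log2 fold changes of -3.17 and -3.44 (adjusted p = 8.5e-09 and 1.6e-05) and Gstk1 of -1.77 and -2.30 (adjusted p = 2.8e-07 and 2.5e-06). Gstz1, an enzyme of tyrosine breakdown, was at 277, 561 and 743 CPM in Cyp1a2_CA, at 626, 337, 155, 434 and 761 CPM in Gls2_CA and at 268, 297 and 311 CPM in WT. It rose by 0.78 (SE 0.20, adjusted p = 0.0023) in Cyp1a2_CA, and in Gls2_CA the value was 0.54 (adjusted p = 0.12), or 0.75 (adjusted p = 0.002) without GAB235. Of its 5088 exon bases, 621 overlap with Pomt2 and Gm6566 on the other strand, and it is not stated whether the counting used strand.

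The theta class held rises and falls. Gstt2 was at 11.3, 29.1 and 41.2 CPM in Cyp1a2_CA, at 48.3, 27.97, 8.21, 33.4 and 34.6 CPM in Gls2_CA and at 11.8, 14.7 and 20.6 CPM in WT. It rose by 0.78 and 0.86 (adjusted p = 0.012 and 0.034). Under upper-quartile scaling the values were 0.55 and 0.63 and the calls were lost (adjusted p = 0.06 and 0.11). The Gls2_CA call was also lost without GAB18, GAB242, GAB294, WT_Cre-BL1, WT_Cre-BL3, WT_Cre-BL5 or WT_Cre-BL6 (adjusted p 0.057 to 0.099). Gstt1 was at 20.3, 57.2 and 146 CPM in Cyp1a2_CA, at 65.5, 39.3, 18.2, 56.8 and 53.6 CPM in Gls2_CA and at 65.2, 75.4 and 93.7 CPM in WT. Its log2 fold change was -0.47 (adjusted p = 0.19) in Cyp1a2_CA, where CAB145 alone was above WT, and -0.76 (adjusted p = 0.0071) without that animal. In Gls2_CA it fell by 0.85 (adjusted p = 0.01). Gstt3 had values of -0.86 (adjusted p = 0.14) and -1.10 (adjusted p = 0.005).

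The membrane-bound transferases also parted. Mgst1, which protects membranes from oxidised lipids, was at 235, 503 and 1017 CPM in Cyp1a2_CA, at 767, 562, 141, 405 and 539 CPM in Gls2_CA and at 1399, 1617 and 1680 CPM in WT. The groups did not overlap, and the log2 fold changes were -1.55 (SE 0.25, adjusted p = 5.2e-05) and -1.82 (SE 0.32, adjusted p = 0.00031). Mgst3, which can act in leukotriene synthesis, was at 2.34, 3.91 and 24.3 CPM in Cyp1a2_CA, at 12.97, 17.6, 2.06, 16.5 and 6.54 CPM in Gls2_CA and at 2.08, 3.09 and 4.27 CPM in WT. In Cyp1a2_CA 4 of 9 animals were above WT. The rises were 1.46 (SE 0.59, adjusted p = 0.037) and 1.72 (SE 0.44, adjusted p = 0.0039), and the first lost its call without CAB145, CAB52 or CAB228 and without any of 5 WT animals (adjusted p 0.051 to 0.078). Mgst2 passed no filter and was at most 0.356 CPM.

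**Figure D5:**
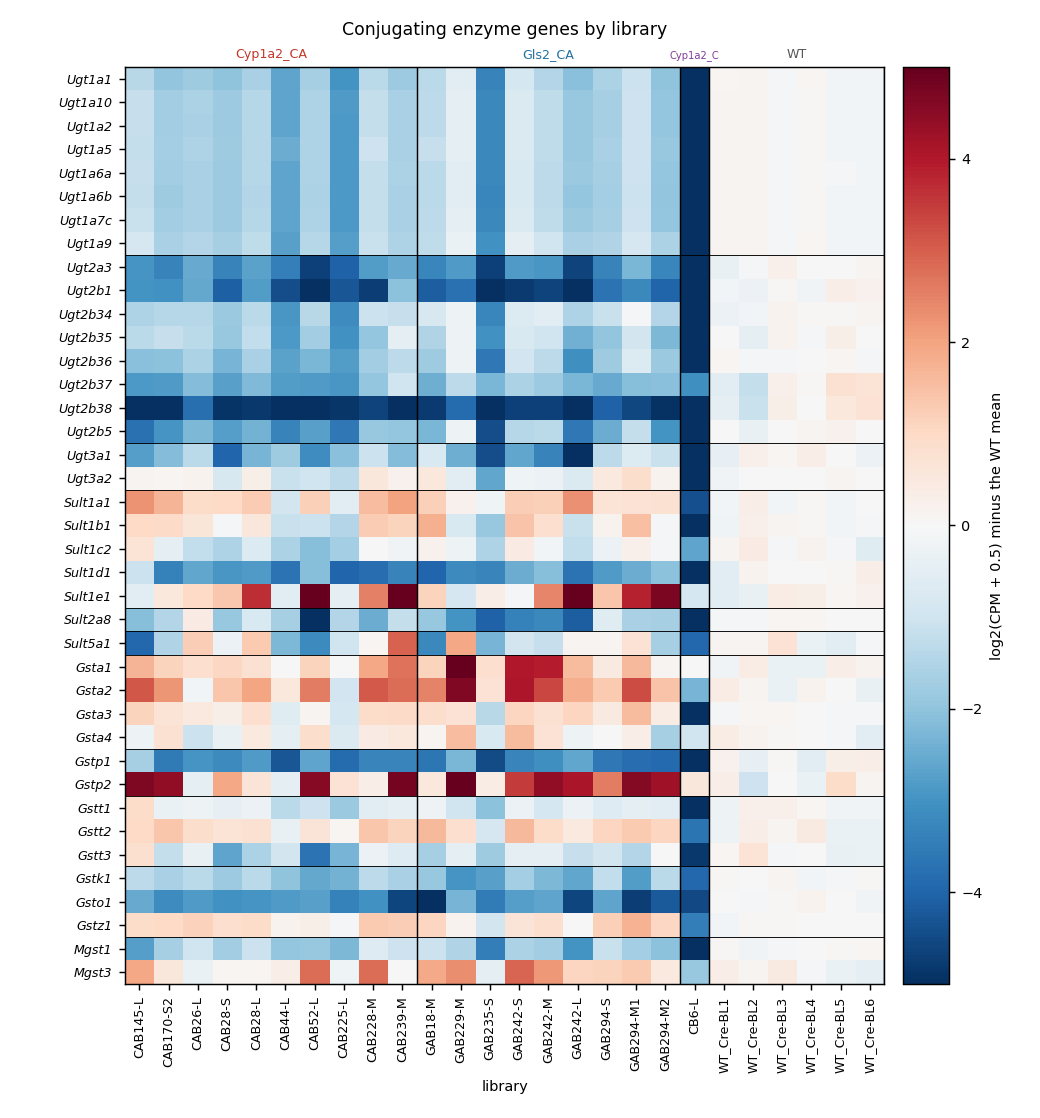
Level of the members tested against WT, by library, as log2(CPM + 0.5) minus the mean of the WT libraries. Colours run from -5 (blue) to 5 (red), with tumour libraries left of WT. Ugt2a2 and Sult2a7, though tested in Cyp1a2_CA, were too low to be drawn. The Ugt rows are blue in the tumour libraries apart from Ugt3a2, the high-Ttn libraries CAB44-L, CAB225-L, GAB235-S and CB6-L are darker, and the Sult1e1 and Gstp2 rows change from library to library.

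Summed by family, the lowest Ugt1a row was at 149 ± 51.2 CPM in Cyp1a2_CA and 192 ± 105 CPM in Gls2_CA against 472 ± 42.6 CPM in WT. Ugt2 and Ugt3 rows summed to 694 ± 268 and 895 ± 483 CPM against 2709 ± 278 CPM. Sult rows summed to 918 ± 416 and 602 ± 263 CPM against 1144 ± 53.5 CPM, and Gst and Mgst rows to 2700 ± 911 and 2644 ± 1079 CPM against 3785 ± 187 CPM (SD, n = 9, 5 and 6 animals throughout).

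Between the tumour groups, Cyp1a2_CA against Gls2_CA, none of 41 members tested passed an adjusted p of 0.05, as was the case for all 17129 genes (0% called by edgeR). At an unadjusted p under 0.05 there was 1 member by edgeR and 1 by DESeq2, Gsta1 in both, and 6 by limma-voom (Gsta2, Gstk1, Mgst3, Sult1c2, Sult3a1 and Ugt2b34), none adjusted. Over all genes, 554 had an unadjusted p under 0.05 by edgeR, DESeq2 called 7 higher and 13 lower, and limma-voom called 10 lower. The log2 difference of Gsta1 was -2.55 with an approximate 95% interval of -4.34 to -0.75, and GAB229 and GAB242 were above every Cyp1a2_CA animal. Intervals here are the log2 fold change ± a normal multiple of its SE. With so few animals they are narrower than the test implies, and Gsta1 did not pass after adjustment. For Ugt1a1 the difference was -0.43 (-1.12 to 0.27), for Ugt2b1 0.97 (-0.20 to 2.13), for Sult2a8 1.09 (-0.46 to 2.65) and for Gstp2 -0.21 (-2.32 to 1.89). These intervals hold changes of more than 2-fold in at least 1 direction, so the data do not show that the groups are alike.

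In the library labelled Cyp1a2_C (CB6), Ugt1a1 was at 3.15 CPM, Ugt2b1 at 0.216, Sult1a1 at 8.91, Sult2a8 at 0.360, Gsta3 at 8.96, Gstp1 at 9.36 and Mgst1 at 9.09 CPM, each below every WT animal. Gstp2, at 3.20 CPM, was within the WT range. This is 1 library with high Ttn and a hepatocyte marker sum of 663.8 CPM, and these values have no replicate check.

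Genes on the lists for supply of the donors moved in both directions. Of 11 genes on the list for UDP-glucuronic acid, 5 rose and 2 fell in Cyp1a2_CA and 5 rose and 1 fell in Gls2_CA. This list also holds Gulo and Rgn, which belong to vitamin C synthesis and do not supply the donor. Ugdh, which makes UDP-glucuronic acid and is named here after its values were seen, rose by 0.99 (adjusted p = 0.026) and 1.36 (adjusted p = 0.0048), the first losing its call without WT_Cre-BL2 or WT_Cre-BL6 (adjusted p = 0.053 and 0.052). Pgm2, a phosphoglucomutase, fell by 1.93 and 2.14 (adjusted p = 9e-09 and 2.9e-06), while Pgm1 rose by 0.97 and 1.10 (adjusted p = 0.00046 and 0.0023). The nucleotide sugar carrier Slc35d2 rose by 1.11 and 0.74 (adjusted p = 0.00037 and 0.035), and its Gls2_CA call was lost without GAB18, GAB229, GAB294 or any 1 of 5 WT animals, WT_Cre-BL1 being the exception (adjusted p 0.052 to 0.093). Hexokinase 1, Hk1, was at 14.3 to 199 CPM in Cyp1a2_CA and 13.7 to 308 CPM in Gls2_CA against 3.42 to 5.22 CPM in WT. Its highest values were those of the high-Ttn animals CAB44, CAB225 and GAB235, and the others had 14.3 to 24 CPM in Cyp1a2_CA and 13.7 to 20.3 CPM in Gls2_CA. The log2 fold changes of Hk1 were 3.62 and 4.11 (adjusted p = 0.00079 and 0.0015), and 1.91 and 1.81 (adjusted p = 3.8e-08 and 3.3e-07) without the high-Ttn libraries.

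Of 11 genes on the list for PAPS supply, 5 rose and 5 fell in Cyp1a2_CA and 4 rose and 5 fell in Gls2_CA. Slc35b3, which carries PAPS into the Golgi, rose by 1.51 and 1.49 (adjusted p = 4.8e-07 and 6e-05). Impad1, a phosphatase for the by-product PAP, fell by 1.87 and 1.75 (adjusted p = 2.3e-09 and 2e-06), the sulfate carrier Slc26a2 fell by 1.63 and 1.73 (adjusted p = 4.8e-07 and 4.6e-06) and the sulfurtransferase Tst fell by 2.06 and 1.87 (adjusted p = 5.8e-06 and 0.00092). Of the genes on the glutathione list, 5 of 16 rose and 5 fell in Cyp1a2_CA, and 6 of 15 rose and 5 fell in Gls2_CA. The risen genes of both counts include Opa1, which does not encode a glutathione enzyme. Slc7a11, the cystine importer that feeds glutathione synthesis, was at 0.0572 to 326 CPM in Cyp1a2_CA and 2.85 to 286 CPM in Gls2_CA against 0 to 0.128 CPM in WT (log2 fold changes 9.40 and 10.69, adjusted p = 0.0016 and 0.00014). CAB52 held the highest Cyp1a2_CA value and the other 8 animals had at most 18.9 CPM. Without CAB52 the Slc7a11 log2 fold change was 6.38 (adjusted p = 0.0003), and without GAB229 the Gls2_CA value was 9.79 (adjusted p = 0.00026). Lap3, an aminopeptidase, fell by 1.80 and 1.77 (adjusted p = 5.2e-09 and 8.8e-07), Chac1, which breaks down glutathione, fell by 1.14 and 2.60 (adjusted p = 0.019 and 5.9e-05), and Opa1, a mitochondrial fusion protein of the list, rose by 0.84 and 0.81 (adjusted p = 0.00012 and 0.00028).

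Among other conjugating enzymes, 3 of 19 rose and 7 fell in Cyp1a2_CA and 5 of 18 rose and 8 fell in Gls2_CA. Glyat, which joins acids to glycine, fell by 2.70 and 2.83 (adjusted p = 1.7e-09 and 1.6e-05), Baat, which conjugates bile acids, fell by 1.91 and 2.19 (adjusted p = 3.5e-05 and 2.5e-05), and the methyltransferase Inmt fell by 3.93 and 4.30 (adjusted p = 1.8e-05 and 2.4e-05). Tpmt, which methylates thiopurines, rose by 2.07 and 1.61 (adjusted p = 9.2e-06 and 0.00025). Of 6 deconjugating enzymes, 1 rose and 2 fell in Cyp1a2_CA and 1 rose and 1 fell in Gls2_CA: the sulfatase Arsg rose by 1.45 and 0.91, Arsb fell by 1.14 and 0.92, and Arsa fell by 0.93 in Cyp1a2_CA, with a Gls2_CA value of -0.59 (adjusted p = 0.19). The Gls2_CA call of Arsg was lost without GAB18 (0.57, adjusted p = 0.11), GAB294, WT_Cre-BL2, WT_Cre-BL3, WT_Cre-BL4 or WT_Cre-BL6, with adjusted p from 0.051 to 0.11. The Cyp1a2_CA call of Arsa was lost without the high-Ttn libraries (-0.78, adjusted p = 0.085). It was also lost without any 1 of CAB170, CAB28, CAB44, CAB225, CAB239, WT_Cre-BL1, WT_Cre-BL2, WT_Cre-BL4 and WT_Cre-BL5 (adjusted p 0.053 to 0.07). Sumf1, which activates sulfatases, had values of -0.28 and -0.40 (adjusted p = 0.084 and 0.056). Sumf1 passed without CAB228 (-0.38, adjusted p = 0.0083), and in Gls2_CA without GAB18 or GAB294 (-0.50 in both, adjusted p = 0.022 and 0.023).

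Of 15 regulators of conjugation genes tested, 7 rose and 3 fell in Cyp1a2_CA and 7 rose and 1 fell in Gls2_CA. Nr1i3, the xenobiotic receptor CAR, rose by 1.51 and 1.60 (adjusted p = 0.00034 and 0.00021), Ppara by 1.16 and 1.48 (adjusted p = 0.00025 and 0.002) and Arnt, the partner of the dioxin receptor, by 1.28 and 1.39 (adjusted p = 1.4e-06 in both). Maf fell by 1.61 and 1.46 (adjusted p = 6e-06 and 0.00025). Of 13 sex-biased liver markers, 4 rose and 5 fell in Cyp1a2_CA and 3 rose and 5 fell in Gls2_CA. Beside Cyp2d9 and Slco1a1, the Y-linked Uty rose by 2.70 and 2.11 (adjusted p = 9.3e-09 and 0.00025), and Eif2s3y rose by 1.35 in Cyp1a2_CA (adjusted p = 3.1e-06), with a Gls2_CA value of 0.68 (adjusted p = 0.10) that passed without GAB18 or GAB242 (0.89 and 0.88, adjusted p = 0.024 and 0.031). All these lists were chosen with earlier results of these data known, and their counts are read against the shares over all genes given above.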

How the data were processed

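The deposited table holds the authors' raw read counts per gene for 26 libraries. The genome build was mm10, per the submitters' processing notes, and no source used here names the aligner, the counter or its use of strand. RNA came from frozen fragments by TRIzol and column, and libraries were made with a Nugen Ovation kit, per the labels' protocols. Of 35976 gene symbols, 26763 (74.4%) matched GENCODE M21 (GRCm38, the assembly of mm10), among them all 52 members. Promoters are from RefSeq (GRCm38.p6).

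Counts of libraries from 1 animal number were summed. Each pair of groups was fitted over all genes with edgeR 4.0.16 in R 4.3.3 (filterByExpr, TMM factors, robust quasi-likelihood test, Benjamini-Hochberg threshold 0.05). The labels do not say how the WT samples were bred or housed, so p-values measure the spread between these animals. Alternatives were other scalings (RLE, upper quartile), other filters, other replicate units, 1 fit of all groups, DESeq2 1.42.0, limma-voom 3.58.1 with quality weights, leaving out libraries with Ttn above 1000 CPM, an offset for exon length and GC content, thinned tumour counts, leaving out animals with another Xist level (over 10 CPM) and leaving out each animal. The scripts were tested on simulated data.

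Values by animal are given for the 2 highest members of each subfamily and for the 6 largest rises and falls past the threshold in each comparison with WT among members with at least 5 CPM in the higher group. Ugt2b5, Sult2a1 and Sult2a2 are also given in single animals, though this rule did not pick them. Of each supporting list the 4 genes with the smallest p are named. Named beyond that rule were Ugdh, Mup20, Hsd3b5, Cyp7b1, Elovl3, the female-biased liver genes, Xist and Ddx3y. Members, lists and rules were chosen with earlier results of these data known.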

Additional observations from a re-analysis of the deposited data

Results flagged for a closer look

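Of 84 groups of animals looked at, 6 held an animal far from the others of its group on the log2(CPM + 0.5) scale, where chance alone gives about 1 group in 20. In Gls2_CA the high-Ttn animal GAB235 was far below the others in Gsta3 (330.8 CPM, next animal 1495 CPM), Ugt2b34 (54.48 CPM, next 298.3 CPM) and Ugt2a3 (8.832 CPM, next 24.87 CPM). In Cyp1a2_CA, CAB52 was far below the others in Sult2a8 (3.768 CPM, next 141.2 CPM), although its Alb level was the highest of the group. CAB26 was far above the others in Ugt2b38 (0.8163 CPM, next 0.2 CPM), and CAB239 was far below them in Gsto1 (2.336 CPM, next 5.827 CPM).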

How the results depend on the processing

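Among the 28 members picked by the naming rule, directions held in all settings for those past the threshold. The exception was the Ugt1a9 excess in Gls2_CA, which was 0.28 (adjusted p = 0.51) against -1.23 for the whole row. In Cyp1a2_CA 6 to 10 members were higher and 23 to 27 lower across the settings, and 7 to 9 and 23 to 26 with an animal left out. In Gls2_CA 5 to 11 were higher and 20 to 26 lower. The 11 came with no filter on low counts, against 7 with it. With an animal left out, 4 to 8 were higher, the 4 without GAB18 or GAB242, and 24 to 26 lower. Between tumour groups the count was 0 in all settings. Upper-quartile scaling moved the median of all genes to -0.05 and -0.09, from 0.17 and 0.14, and that of the members to -1.83 and -1.61. The length and GC offset gave member medians of -1.19 and -0.90. Under that offset Ugt1a9 and Ugt2b34 lost their calls in Gls2_CA (adjusted p = 0.051 each) and Gsta4 gained one in both groups (0.79 and 1.24). Gstt1 in Gls2_CA lost its call under that offset (-0.41, adjusted p = 0.12) and in the fit of all groups (-0.84, adjusted p = 0.059). Mgst3 in Cyp1a2_CA also lost its call by limma-voom (0.43, adjusted p = 0.32) and under upper-quartile scaling (1.22, adjusted p = 0.072). Sult1a1 in Gls2_CA lost its call in the fit of all groups (adjusted p = 0.13) and under upper-quartile scaling (adjusted p = 0.099). Sult2a8 in Cyp1a2_CA gained one by DESeq2 (-1.65, adjusted p = 0.0024). By limma-voom the rises of Gstp2 and Sult1e1 in Cyp1a2_CA were 2.16 and 2.61. The cause of these changes was not tested. No paired analysis was possible because no replicate number in the labels ties a tumour animal to a WT animal. Depth limits the Sult2a genes other than Sult2a8, which had few reads.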
